A study of Mus musculus with 2 samples.

Results

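Imprinted genes are transcribed mainly from the chromosome copy of 1 parent, and 10 of them from 5 imprinted loci were followed in droplet libraries of cells sorted from E14.5 mouse retinas by an *Lhx4* reporter. They are *Meg3*, *Rian*, *Mirg* and *Dlk1* of the *Dlk1-Meg3* locus, *Magel2*, *Ndn* and *Snrpn* of the Prader-Willi/Angelman region, *Peg3*, *Nnat* and *Plagl1*. The genes were chosen by symbol, on values of these same libraries, so their levels by gate and cell group are given as a description and no test was made of them. Of the 28692 genes listed for both libraries, 9 of the 10 had a row under their symbol, and *Rian* was not analysed here.

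All cells came from embryos of the BAC reporter line Tg(Lhx4::EGFP)KN199Gsat/Mmucd, in which regulatory sequence of *Lhx4* drives EGFP, so the carriers on both sides of the gate share the transgene, kept as heterozygotes, and the gate reads its activity. Retinas of 2 litters were pooled into 1 suspension. The LHX4::GFP+ gate, labelled as cone photoreceptors, and the LHX4::GFP- gate, labelled as retinal cells, each became 1 library, so no value has a biological replicate. UMIs (molecule tags that count PCR copies of a transcript once) were added up over the cells of a group, and a level is their number per 1000000 (CPM). The ranges in brackets are 95% intervals, exact Poisson for a level, Clopper-Pearson for the percentage of cells with a UMI and exact conditional for a ratio, and they cover counting error only. Those of levels and ratios leave out the spread between cells, so they are too narrow for genes that vary widely, such as *Meg3* and *Nnat*.

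Imprinted genes carry methylation marks laid down in the egg or sperm, which keep 1 parental copy silent, and many of them act on growth, the exit from the cell cycle and neuronal maturation. At the *Dlk1-Meg3* locus, *Meg3*, *Rian* and *Mirg* are noncoding RNAs of the maternal copy that also host small RNAs, while *Dlk1*, a Notch-like transmembrane protein, comes from the paternal copy. *Magel2*, *Ndn* and *Snrpn* are paternal genes of the region lost in Prader-Willi syndrome. The UMI counts do not tell parental alleles apart, so only the summed level of both copies was measured.

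The GFP+ library held 3728 cells and the GFP- library 4445, with 16010591 and 46778924 UMIs, and 3689 and 3391 cells with 250 to 3500 genes were kept, with a median of 3894 and 8853 UMIs. The upper limit removed 39 GFP+ and 1053 GFP- cells, 20 barcodes occurred in both libraries, and 2 kept cells were called doublets and left in. Cells were grouped by UMIs of at least 2 different markers of a class. Cone markers placed 3618 GFP+ cells (98.1% of the gate), with *Gngt2* at 1913 CPM and *Otx2* at 1518 CPM, and 81 GFP- cells, and the other GFP- groups held 1628 progenitor, 677 neurogenic, 627 ganglion and 236 amacrine/horizontal cells. These 6 groups had median depths of 3885.5, 5531, 9288, 8007, 10476 and 6758.5 UMIs. In the same order, 81, 22, 63, 305, 283 and 134 of their cells sat at exactly 2 markers. Markers of blood, microglia, pigment epithelium, lens and periocular mesenchyme each summed to at most 27.25 CPM in any group, and endothelial markers to 349.6 CPM in amacrine/horizontal cells and 58.9 CPM or less in the other 5 groups.

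The promoter windows of the 4 genes that differed most between GFP+ cone and progenitor cells are shown to give the sequence beside those levels. They are the RefSeq windows of GRCm38.p6, from 250 bases before to 50 bases after an annotated start, for *Meg3* (chr12:109540746-109541045, plus strand), *Magel2* (chr7:62376729-62377028, plus strand), *Nnat* (chr2:157559828-157560127, plus strand) and *Plagl1* (chr10:13090582-13090881, plus strand). Capitals mark a match, here on the reverse strand, to TGCCGC, the letters that ZFP57 binds when methylated in order to maintain imprints.
Meg3: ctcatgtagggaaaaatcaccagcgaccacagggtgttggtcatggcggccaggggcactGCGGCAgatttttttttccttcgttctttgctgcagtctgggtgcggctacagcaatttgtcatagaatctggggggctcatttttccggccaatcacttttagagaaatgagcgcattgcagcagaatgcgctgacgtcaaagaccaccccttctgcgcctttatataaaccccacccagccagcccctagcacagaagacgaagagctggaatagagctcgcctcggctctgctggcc
Magel2: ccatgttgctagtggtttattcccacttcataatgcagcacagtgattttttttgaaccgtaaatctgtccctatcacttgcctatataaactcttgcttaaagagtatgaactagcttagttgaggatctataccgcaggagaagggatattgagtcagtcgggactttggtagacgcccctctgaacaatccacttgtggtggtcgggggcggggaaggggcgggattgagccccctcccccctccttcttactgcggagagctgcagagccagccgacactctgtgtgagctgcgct
Nnat: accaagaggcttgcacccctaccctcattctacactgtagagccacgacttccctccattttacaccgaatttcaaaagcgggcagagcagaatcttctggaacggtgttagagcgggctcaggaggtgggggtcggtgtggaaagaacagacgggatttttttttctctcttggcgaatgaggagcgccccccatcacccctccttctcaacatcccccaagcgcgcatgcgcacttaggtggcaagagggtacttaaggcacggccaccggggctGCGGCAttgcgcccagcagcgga
Plagl1: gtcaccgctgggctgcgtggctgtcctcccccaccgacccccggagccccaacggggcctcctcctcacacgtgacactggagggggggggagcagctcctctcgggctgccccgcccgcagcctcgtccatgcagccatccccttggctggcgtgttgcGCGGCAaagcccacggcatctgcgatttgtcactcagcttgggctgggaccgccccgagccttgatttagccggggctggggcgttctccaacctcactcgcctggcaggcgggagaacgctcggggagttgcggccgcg
TGCCGC was searched on both strands and occurred in 11.6% of 32851 promoter windows of the same length. One of the *Snrpn* windows (chr7:60005150-60005449, minus strand) held a match as well, and the *Magel2* window held none. Neither the YY1 letters GCCATNTT, found in 6.05% of all windows, nor the CRX/OTX2 letters TAATCC, found in 7.06%, occurred in a window of these genes. The printed *Meg3*, *Magel2*, *Nnat* and *Plagl1* windows held 13, 10, 17 and 26 CG pairs, against a median of 7 and a 90th percentile of 31 over all windows. A second *Meg3* window (chr12:109545148-109545447, plus strand) held 1 CG pair and no match. A match in a window is a description of its letters and was not tested as a bound site.

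*Meg3*, *Nnat*, *Mirg*, *Magel2* and *Peg3* were at least 2-fold higher in the GFP+ than in the GFP- library, and *Plagl1* was at least 2-fold lower. These are 5 higher and 1 lower of the 9 genes, and among all 12825 genes with at least 50 UMIs over both libraries 21.3% were at least 2-fold higher and 14.2% at least 2-fold lower. With TMM factors, another scaling, the shares over all genes were 14% higher and 18.7% lower, and the same counts of 5 and 1 were obtained. On the scale of UMI totals the median gene lay at a log2 ratio of 0.30 and the median of the 9 genes at 1.33.

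*Meg3* had the widest gap of the genes that were higher, at 2873 CPM (2846 to 2900) in the GFP+ library and 221 CPM (215.5 to 226) in the GFP- library, 13.01-fold higher (12.7 to 13.35). Without the limit of 3500 genes *Meg3* stood at 2833 and 275 CPM, a narrower gap. *Nnat*, which encodes neuronatin, a small membrane protein of the endoplasmic reticulum, stood at 8076 and 1308 CPM, 6.17-fold higher (6.10 to 6.24). *Plagl1*, a zinc finger transcription factor also known as ZAC1 that restrains proliferation, went the other way, at 17.4 CPM in the GFP+ and 186 CPM in the GFP- library, 10.7-fold lower (9.47 to 12.1). Among the 9 genes the intervals overlapped between the libraries only for *Dlk1*, so a lack of overlap does not set these 3 genes apart. The intervals cover counting error only, and the share of all genes without overlap was not counted. *Ndn*, *Snrpn* and *Dlk1* were within 2-fold, with ratios of 1.55 (1.498 to 1.60), 1.34 (1.28 to 1.40) and 1.37 (0.952 to 1.96), and the interval of *Dlk1* includes equal levels. The direction of *Snrpn* rests on the limit of 3500 genes, without which its log2 ratio between the libraries was -0.04 in place of 0.42.

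**Figure D1:**
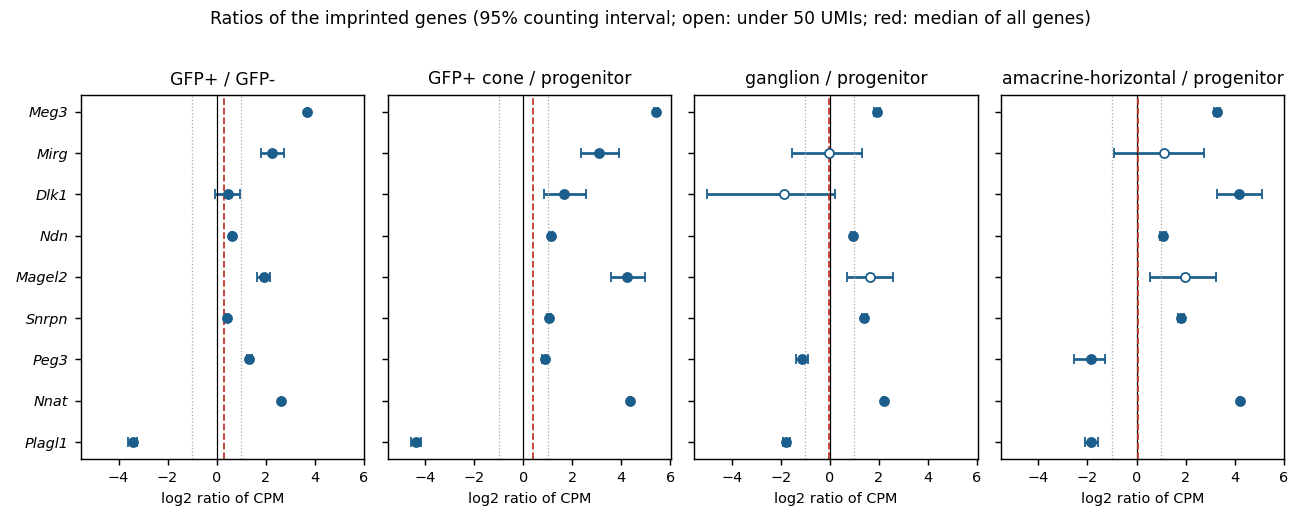
The log2 ratio of CPM is plotted on the x axis for each of the 9 genes in 4 comparisons, with bars for 95% counting intervals, open points for genes with under 50 UMIs, dotted lines at 2-fold and a dashed red line at the median of all genes. *Plagl1* lies left of the 2-fold line in every panel, from -4.38 in the cone comparison to -1.78 in the ganglion comparison, and *Nnat* and *Meg3* lie right of it in every panel.

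The marker groups separate the mixture in the GFP- gate only in part. Progenitor markers summed to 4576 CPM in progenitor cells, 1261 CPM in neurogenic cells and 1191 CPM in ganglion cells. They stood at 164 CPM in amacrine/horizontal cells. The part of progenitor transcripts in the levels of the other groups was not tested. In GFP+ cone cells 7 of the 9 genes were at least 2-fold higher than in GFP- progenitor cells and 1, *Plagl1*, was lower, where 27.3% of all 12138 genes were higher and 13.6% lower. With TMM factors those shares were 18.5% and 18.5%, and 5 of the genes were higher, because *Ndn* and *Snrpn* passed 2-fold only on the scale of UMI totals. The median gene lay at a log2 ratio of 0.41 there, and at 0.03 with TMM factors. Ganglion cells had 3 of 6 genes with enough UMIs higher than progenitor cells (*Meg3*, *Snrpn* and *Nnat*) and 2 lower (*Peg3* and *Plagl1*), against 10.5% and 11.4% of all 11244 genes. Amacrine/horizontal cells had 5 of 7 higher (*Meg3*, *Dlk1*, *Ndn*, *Snrpn* and *Nnat*) and the same 2 lower, against 15.5% and 18.9% of all 10744 genes, or 11.7% and 22.9% with TMM factors, under which *Ndn* was under 2-fold. In cells thinned to 3200 UMIs 3 genes were higher there, as *Ndn* stood at a log2 ratio of 0.95 and *Dlk1* fell under 50 UMIs. These comparisons share the progenitor cells as their denominator, so their counts are not independent of one another.

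**Figure D2:**
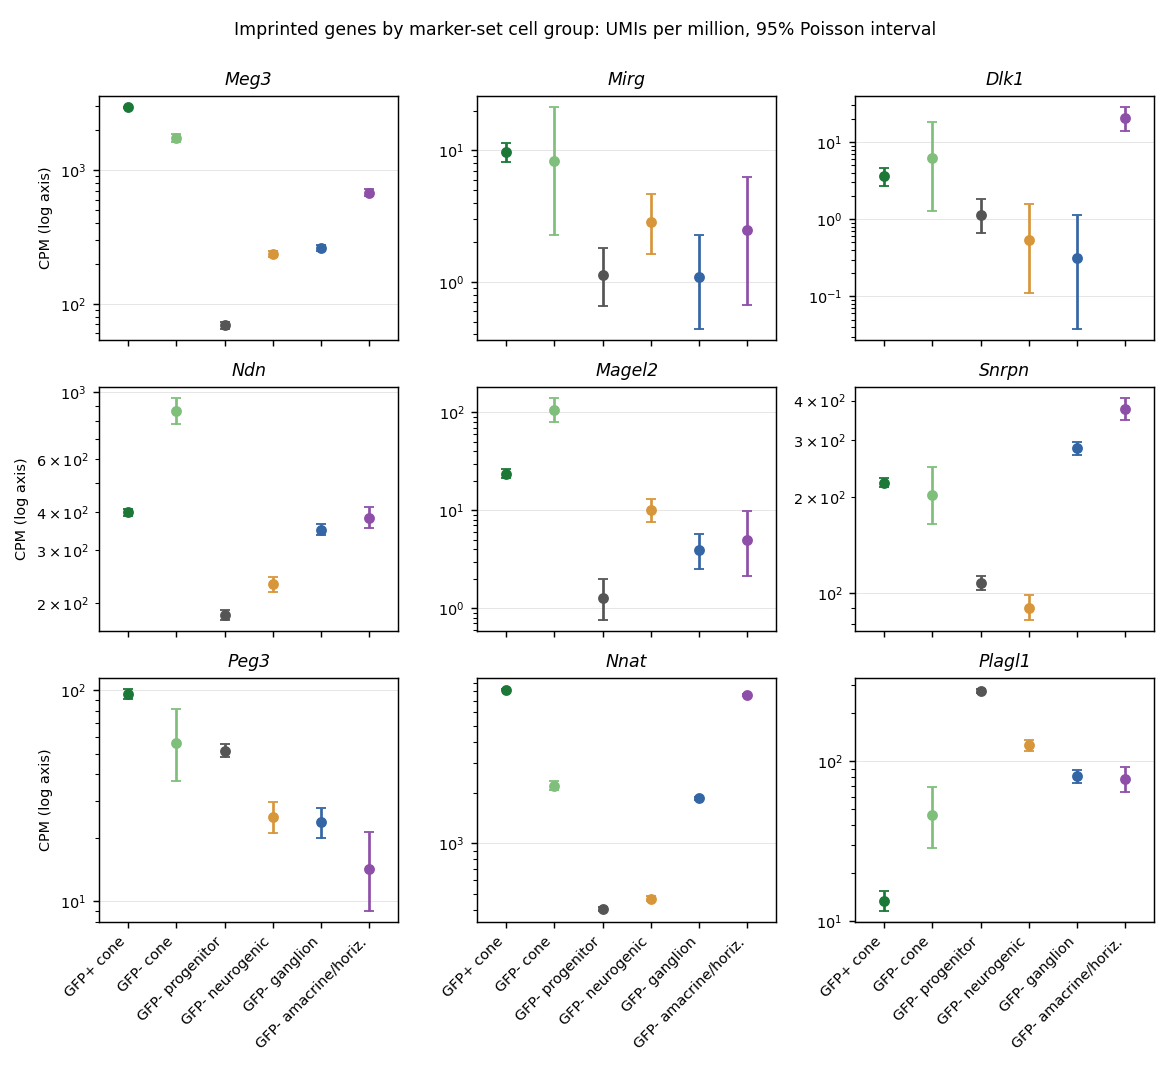
CPM on a log axis for each of the 9 genes, 1 panel per gene, in 6 marker-set cell groups, with 95% Poisson intervals over the summed UMIs of 1 library. GFP+ cone cells have the highest *Meg3* (2942 CPM) and the lowest *Plagl1* (13.3 CPM), while *Magel2* and *Ndn* are highest in the 81 GFP- cone cells and *Dlk1* in amacrine/horizontal cells. *Snrpn* is highest in amacrine/horizontal cells only under the limit of 3500 genes, without which ganglion cells held more (410.5 against 363 CPM).

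*Meg3* (ENSMUSG00000021268, chr12:109541001-109571726 of GRCm38) is a long intergenic noncoding RNA. Its level was 69.1 CPM (64.9 to 73.4) in progenitor cells, 236 CPM (224 to 249) in neurogenic cells, 260 CPM (248 to 273) in ganglion cells, 678 CPM (638 to 719) in amacrine/horizontal cells, 1753 CPM (1637 to 1876) in GFP- cone cells and 2942 CPM (2915 to 2970) in GFP+ cone cells. Each step in this order was wider than the intervals except that between neurogenic and ganglion cells, whose intervals overlapped. Under the limit, GFP+ cone cells stood 42.6-fold (40.1 to 45.4) above progenitor cells and 11.3-fold (10.8 to 11.9) above ganglion cells. They stood 4.34-fold (4.09 to 4.615) above amacrine/horizontal cells. Without the limit GFP+ cone cells held 2908 CPM, so their ratio to the ganglion cells was smaller.

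Some *Meg3* signal was present in progenitor cells, at 2.35% of the cone level. The cone genes *Gngt2*, *Pdc* and *Gnb3* were found there at 0.0278%, 0.00894% and 0.0428% of their cone levels, but as cone markers they also set the grouping, which lets a progenitor cell hold 1 of them at most. When each cell was thinned to 3200 UMIs, *Meg3* had a UMI in 14.1% of progenitor cells and 81.5% of GFP+ cone cells, and *Gngt2* in 0.185% and 95.35%. The unthinned *Meg3* shares were 25.4% and 83.5%. The part of free RNA in the progenitor value was not tested further.

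The ganglion value of *Meg3* depends on the limit of 3500 genes, since 622 of the 1249 GFP- cells with ganglion markers (49.8%) had more. Taken as a group of their own after these values were seen, those 622 cells held 568 CPM (553.5 to 583) of *Meg3*, and with them the group rose from 260 to 448 CPM (438 to 458). *Snrpn* moved from 284 to 410.5 CPM (400.7 to 420.5) and *Ndn* from 350.1 to 449 CPM (438.5 to 459). This put *Ndn* past 2-fold over progenitor cells. *Magel2*, from 25 and 19 UMIs under the limit, reached the minimum of 50 UMIs only without it, at 3.24 against 1.095 CPM. With *Ndn* and *Magel2*, 5 genes were higher without the limit. Grouping by 3 markers instead of 2 also widened the ganglion differences, to log2 ratios over progenitor cells of 2.69 for *Meg3* and -3.25 for *Plagl1* from 1.91 and -1.78, and in amacrine/horizontal cells *Meg3* moved to a log2 ratio of 4.0 from 3.29.

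*Mirg* (ENSMUSG00000097391, chr12:109729764-109749460) lies downstream of *Meg3* on the same strand, and RefSeq places 54 microRNA hairpins between the start of *Meg3* and the end of *Mirg*, 14 of them within *Mirg* and 1 within *Meg3*. It was counted at 9.71 CPM (8.19 to 11.4) in GFP+ cone cells, from 146 UMIs, and at 8.35 CPM (2.275 to 21.4) in GFP- cone cells, from 4 UMIs. The other groups held 1.10 to 2.85 CPM, so *Mirg*, like *Meg3*, had its top value in GFP+ cone cells. The GFP- cone interval overlapped that of GFP+ cone cells. It also overlapped those of neurogenic (1.63 to 4.63) and amacrine/horizontal cells, so the GFP- cone cells are not set apart. In GFP+ cone cells *Mirg* was 8.58-fold (5.18 to 15.1) above progenitor cells. Amacrine/horizontal cells, next in *Meg3* after the cone groups, held 2.47 CPM (0.673 to 6.325) of *Mirg*, from 4 UMIs. The amounts did not move in proportion between all groups. *Meg3* had 303 UMIs per *Mirg* UMI (258 to 359) in GFP+ cone cells, 61.1 (37.95 to 105) in progenitor cells and 82.75 (50.8 to 145) in neurogenic cells. In GFP- cone, ganglion and amacrine/horizontal cells the ratio was 210 (81.7 to 772.5), 237 (115 to 590) and 274 (107 to 1008). These wide intervals, from 4, 7 and 4 *Mirg* UMIs, overlapped both that of GFP+ cone cells and that of neurogenic cells. The GFP- cone interval overlapped that of progenitor cells as well, so its ratio does not place that group on either side. The ganglion and amacrine/horizontal intervals lay above that of progenitor cells, the latter only just, at 107 against 105. Within the 3053 thinned GFP+ cone cells, *Mirg* was found in 5.42% (4.29 to 6.74) of the cells with 9 or more *Meg3* UMIs and in 1.09% (0.647 to 1.72) of the cells with fewer. A split of GFP+ cone cells by a neurogenic marker UMI, added after the values were seen, went apart for the pair. Cells with such a UMI had more *Mirg* than the rest, a ratio of 1.84 (1.28 to 2.71), and less *Meg3*, at 0.863 (0.847 to 0.879).

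*Dlk1* (ENSMUSG00000040856, chr12:109452823-109463336), the paternal gene of the same locus, had another pattern. It was found at 20.4 CPM (14.03 to 28.6) in amacrine/horizontal cells, from 33 UMIs in 20 of 236 cells, and at 3.59 CPM (2.70 to 4.68) in GFP+ cone cells, from 54 UMIs in 45 of 3618 cells. Progenitor, neurogenic and ganglion cells held 1.13, 0.535 and 0.314 CPM, and the 3 UMIs in GFP- cone cells came from 1 cell. Amacrine/horizontal cells were thus 18.0-fold (9.75 to 34.5) above progenitor cells and 5.68-fold (3.57 to 8.92) above GFP+ cone cells, and with 3 markers needed the former became a log2 ratio of 5.48 from 4.17, while in thinned cells it was 3.46. In the same amacrine/horizontal cells the endothelial markers *Cldn5*, *Pecam1* and *Kdr*, 3 of 4 listed, summed to 349.6 CPM, against 6.18 to 58.9 CPM in the other 5 groups, while *Cdh5* was at 0 in all 6. The part of these markers in the *Dlk1* value was not tested. *Dio3*, the paternal deiodinase gene at the far end of the locus, was at 59.4 CPM in progenitor cells, 0.266 CPM in GFP+ cone cells and had 0 UMIs in amacrine/horizontal cells, where 3 counts would be 1.85 CPM.

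*Magel2* (ENSMUSG00000056972, chr7:62377010-62381640), which encodes a MAGE family regulator of ubiquitin ligases and endosomal sorting, was highest in the 81 GFP- cone cells. There it reached 106.5 CPM (79.3 to 140), from 51 UMIs in 29 cells, against 23.7 CPM (21.3 to 26.25) in GFP+ cone cells, 4.50-fold higher (3.29 to 6.05). Neurogenic cells had 9.99 CPM (7.545 to 12.97), amacrine/horizontal cells 4.94 CPM (2.13 to 9.74), ganglion cells 3.92 CPM (2.54 to 5.78) and progenitor cells 1.26 CPM (0.761 to 1.97). The intervals of the amacrine/horizontal cells overlapped those of the neurogenic and the ganglion cells, and the rest of the order did not overlap. The share of thinned cells with a *Magel2* UMI ran from 0.432% of progenitor cells over 5.86% of GFP+ cone cells to 25.3% of GFP- cone cells.

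The GFP- cone cells carried cone markers at 1599 CPM in sum, against 4460 CPM in GFP+ cone cells, neurogenic markers at 591 against 250.4 CPM and progenitor markers at 566 against 38.6 CPM. *Lhx4* itself was at 87.7 CPM there and at 143 CPM in GFP+ cone cells, and *Atoh7*, a proneural factor of newly born retinal neurons, at 182 and 59.2 CPM. *Nnat* was lower in them, at 2192 CPM (2061 to 2329), and *Plagl1* higher, at 45.9 CPM (28.8 to 69.5). The part of the progenitor and neurogenic transcripts in these values was not tested. Doublets were called on all cells of the GFP- library before the filters, and 0 of the 81 cells were among the 55 called. Whether the 81 cells hold doublets that were not called was not tested.

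After these values were seen, *Magel2* was examined in cells split by *Otx2*, the factor at the head of the photoreceptor lineage, and by neurogenic markers. Neurogenic cells with an *Otx2* UMI held 16.9 CPM (12.4 to 22.6) of *Magel2* and those without held 3.46 CPM (1.66 to 6.36), a ratio of 4.89 (2.44 to 10.9). GFP+ cone cells with a UMI of *Atoh7*, *Neurog2*, *Olig2*, *Dll1* or *Dll3* held 31.4 CPM (27.8 to 35.4) and those with none 13.2 CPM (10.6 to 16.4), a ratio of 2.375 (1.855 to 3.07). *Magel2* was thus higher in the neurogenic cells with *Otx2* and lower in the cones without neurogenic transcripts, with its top value in the GFP- cone cells.

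**Figure D3:**
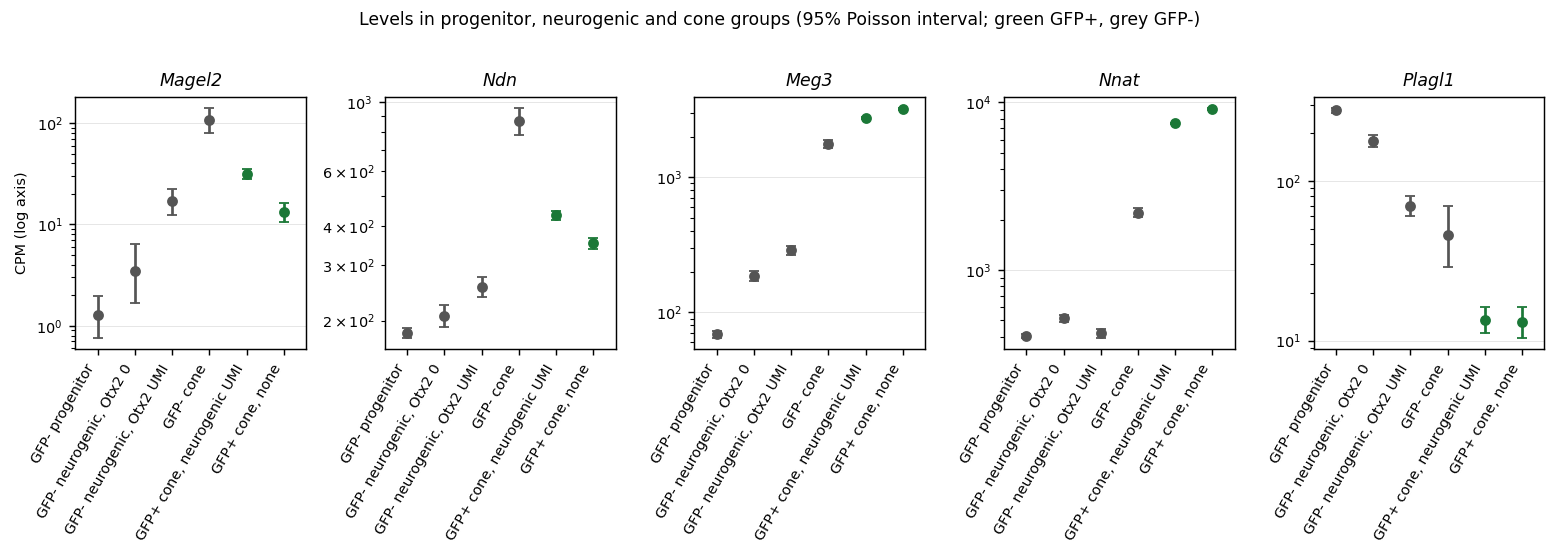
CPM on a log axis with 95% Poisson intervals for 5 genes in progenitor cells, neurogenic cells without and with an *Otx2* UMI, GFP- cone cells, and GFP+ cone cells with and without a neurogenic marker UMI, ordered along the x axis by these markers and not by lineage tracing. *Magel2* and *Ndn* peak in GFP- cone cells at 106.5 and 866 CPM, *Meg3* climbs from 69.1 to 3194 CPM, and *Plagl1* drops from 276 to 13.1 CPM.

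*Ndn* (ENSMUSG00000033585, chr7:62346569-62350262), which encodes necdin, a MAGE protein of postmitotic neurons that binds E2F factors, also had its top value in GFP- cone cells, at 866 CPM (785 to 954). GFP+ cone cells held 399.6 CPM (389.5 to 409.8), amacrine/horizontal cells 384 CPM (354 to 415), ganglion cells 350.1 CPM (336 to 365), neurogenic cells 231 CPM (218 to 244) and progenitor cells 183 CPM (176 to 189.9). The amacrine/horizontal interval overlapped those of GFP+ cone and ganglion cells, and the ratio of GFP+ cone to amacrine/horizontal cells was 1.04 (0.959 to 1.13). Without the limit of 3500 genes the order turned, with ganglion cells at 449 CPM (438.5 to 459) above GFP+ cone cells at 399 CPM (389 to 409) and amacrine/horizontal cells at 375 CPM (347 to 404). Over the 6 groups *Ndn* thus ranged from 183 to 866 CPM and *Magel2*, its neighbour on the same strand, from 1.26 to 106.5 CPM.

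The pair did not keep 1 ratio of UMIs. *Ndn* had 16.9 UMIs per *Magel2* UMI (15.2 to 18.8) in GFP+ cone cells, 8.14 (6.07 to 11.1) in GFP- cone cells and 23.1 (17.7 to 30.8) in neurogenic cells, but 145 (92.5 to 241) in progenitor cells, 89.4 (60.4 to 138) in ganglion cells and 77.6 (39.15 to 181) in amacrine/horizontal cells. These ratios are not corrected for what the 3′ assay captures of each gene, so only their change between groups can be read, and the cone and neurogenic groups lay below the other 3. In thinned GFP+ cone cells, 7.33% (6.23 to 8.56) of the cells with an *Ndn* UMI had *Magel2* and 2.995% (2.04 to 4.225) of those without.

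*Snrpn* (ENSMUSG00000102252, chr7:59982495-60140219), the gene of a spliceosomal SmN protein, was at 376 CPM (347 to 407) in amacrine/horizontal cells, the top value under the limit of 3500 genes. Ganglion cells held 284 CPM (271 to 297), GFP+ cone cells 221 CPM (214 to 229), GFP- cone cells 203 CPM (164 to 247), progenitor cells 108 CPM (102 to 113) and neurogenic cells 90.1 CPM (82.4 to 98.3). The cone groups overlapped each other, and each other step in the order was wider than its intervals. Without that limit ganglion cells, at 410.5 CPM (400.7 to 420.5), lay above amacrine/horizontal cells, at 363 CPM, with intervals that did not overlap. Unlike *Magel2* and *Ndn*, it was not higher in GFP- than in GFP+ cone cells, with a ratio of 0.915 (0.740 to 1.12), and *Ndn* had 4.28 UMIs per *Snrpn* UMI in GFP- cone cells and 1.02 in amacrine/horizontal cells. *Snrpn* was found in 52.0% (49.8 to 54.2) of thinned GFP+ cone cells with *Ndn* and 50.1% (47.05 to 53.2) without. Its counts are uncertain, because 589 of its exonic bases (27.3%) are shared on the same strand with *Gm38393*, which held 35 UMIs in GFP+ cone cells against 3328 for *Snrpn*. *Snurf*, whose 216 annotated exonic bases all lie within *Snrpn*, was at 0 UMIs in every group.

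*Peg3* (ENSMUSG00000002265, chr7:6703892-6730431), which encodes a zinc finger transcription factor, was higher in the cone and progenitor groups than in the other 3. It stood at 96.4 CPM (91.5 to 101.5) in GFP+ cone cells, 56.4 CPM (37.1 to 82.0) in GFP- cone cells and 51.7 CPM (48.1 to 55.5) in progenitor cells, but at 25.2 CPM (21.2 to 29.7) in neurogenic, 23.7 CPM (20.04 to 27.8) in ganglion and 14.2 CPM (9.01 to 21.3) in amacrine/horizontal cells. The GFP- cone and progenitor intervals overlapped, as did those of neighbours among the last 3 groups. GFP+ cone cells were 1.86-fold (1.71 to 2.04) above progenitor cells and 4.07-fold (3.44 to 4.85) above ganglion cells, so *Peg3* fell short of 2-fold in the former comparison. Its log2 ratio of amacrine/horizontal to progenitor cells, -1.86 from 23 UMIs in the former, became -3.00 in thinned cells. There only 5 of 235 amacrine/horizontal cells had a *Peg3* UMI, so counting error is large. *Usp29*, which starts next to *Peg3* on the opposite strand, moved less. It went from 10.4 CPM (3.39 to 24.4) in GFP- cone cells, from 5 UMIs, to 31.1 CPM in GFP+ cone cells. *Peg3* had 3.10 UMIs per *Usp29* UMI (2.79 to 3.45) in GFP+ cone cells and 0.639 (0.3615 to 1.11) in amacrine/horizontal cells. In thinned GFP+ cone cells *Usp29* was found in 9.75% (7.77 to 12.0) of the cells with *Peg3* and 9.94% (8.74 to 11.25) of those without.

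*Nnat* (ENSMUSG00000067786, chr2:157560078-157562522) was highest in GFP+ cone cells, at 8217 CPM (8171 to 8263), and close to that in amacrine/horizontal cells, at 7608 CPM (7475 to 7744), a ratio of 1.08 (1.06 to 1.10). GFP- cone cells held 2192 CPM (2061 to 2329), ganglion cells 1852 CPM (1819 to 1886), neurogenic cells 468 CPM (450 to 486) and progenitor cells 405 CPM (395 to 415). No neighbours in this order overlapped in counting error. The variance of *Nnat* between thinned GFP+ cone cells was 15.1 times its mean, a spread that the intervals leave out. The thinned median was 22 UMIs in both GFP+ cone and amacrine/horizontal cells, so the intervals do not settle the order of these groups. Without the limit of 3500 genes the ganglion and GFP- cone levels did overlap, at 2133 CPM (2110 to 2155) and 2125 CPM (2001 to 2255). It was the gene with the second highest mean per cell in thinned GFP+ cone cells, at 27.2 UMIs, and was found in 99.7% of them and in 66.5% of thinned progenitor cells. *Nnat* lies inside *Blcap*, the maternal gene of the pair, on the other strand and shares no exonic base with it. *Blcap* moved the same way, from 37.6 CPM in neurogenic and 38.7 CPM in progenitor cells to 238 CPM in GFP+ cone cells, but by less, so that *Nnat* had 10.5 UMIs per *Blcap* UMI (9.61 to 11.4) in progenitor cells, 34.5 (33.35 to 35.65) in GFP+ cone cells and 64.5 (55.9 to 74.8) in amacrine/horizontal cells. With 3 markers needed, the log2 ratio of *Nnat* in amacrine/horizontal over progenitor cells became 4.91 from 4.23.

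*Plagl1* (ENSMUSG00000019817, chr10:13060504-13131694) was the only one of the 9 genes with its top level in progenitor cells, at 276 CPM (268 to 284). Neurogenic cells held 126 CPM (117 to 136), ganglion cells 80.6 CPM (73.8 to 87.8), amacrine/horizontal cells 77.2 CPM (64.3 to 92.0), GFP- cone cells 45.9 CPM (28.8 to 69.5) and GFP+ cone cells 13.3 CPM (11.5 to 15.3). The ganglion, amacrine/horizontal and GFP- cone levels overlapped with their neighbours, and GFP+ cone cells lay below all of them, 20.75-fold (18.0 to 24.0) below progenitor cells. The cone level was 4.82% of the progenitor level, against 1.69% for *Sfrp2*, 0.330% for *Fgf15* and 0.897% for *Ccnd1*, which are progenitor genes, *Sfrp2* and *Fgf15* being markers used in the grouping. A *Plagl1* UMI was found in 55.2% of thinned progenitor cells and 4.03% of thinned GFP+ cone cells. Without the limit of 3500 genes amacrine/horizontal cells, at 90.7 CPM (77.25 to 105.9), lay above ganglion cells, at 67.1 CPM (63.2 to 71.2). With 3 markers needed, the amacrine/horizontal ratio to progenitor cells became -3.21 on the log2 scale from -1.84.

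Cells of the cone group differed widely in *Meg3* and *Nnat*. In the 3053 GFP+ cone cells thinned to 3200 UMIs, *Meg3* had a median of 8 UMIs, with 0 at the 10th percentile and 22 at the 90th, and *Nnat* a median of 22, with 6 and 56.8. Their variance was 8.85 and 15.1 times their mean, which put them 4th and 2nd of the 440 genes with a mean of at least 1 UMI, after *Malat1* and, between them, *Xist*. *Ndn*, at a mean of 1.24 UMIs, had a variance of 1.43 times the mean and ranked 84th. Variance over mean rises with the mean at equal relative spread, so these ranks partly follow level. By mean, *Nnat*, *Meg3* and *Ndn* ranked 2nd, 26th and 348th of all genes. At this depth 18.5% of the GFP+ cone cells had no *Meg3* UMI and the highest had 58.

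**Figure D4:**
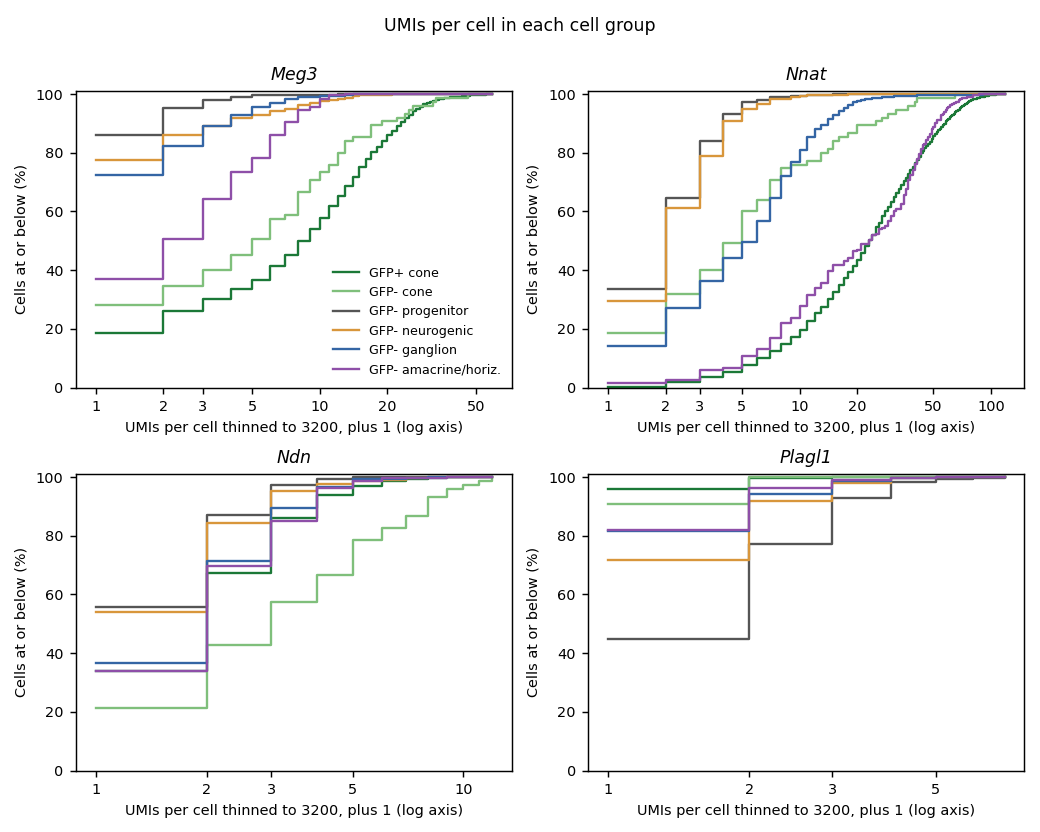
Percent of cells (y axis) at or below a number of UMIs plus 1 (x axis, log) for *Meg3*, *Nnat*, *Ndn* and *Plagl1* in the 6 cell groups, every cell thinned to 3200 UMIs. GFP+ cone cells spread from 0 to over 50 UMIs for *Meg3* and have the same *Nnat* median as amacrine/horizontal cells (22 UMIs), of which more lie at or below 10 UMIs (31.5% against 22.5%), while for *Ndn* the GFP- cone cells lie to the right of all others.

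*Fabp7* encodes a fatty acid binding protein known from progenitors, and the paper reports it as the top marker of a cone subpopulation. Within the GFP+ cone group, cells with at least 3 UMIs of *Fabp7* had less *Meg3*, *Nnat* and *Peg3* than cells without *Fabp7* and more *Magel2* and *Ndn*. *Meg3* was at 2149 CPM in the 542 *Fabp7* cells and 3221 CPM in the 2137 cells without it, a ratio of 0.667 (0.649 to 0.686), and *Nnat* at 4021 and 9551 CPM, a ratio of 0.421 (0.413 to 0.429). *Magel2* was at 38.3 and 17.0 CPM, a ratio of 2.26 (1.74 to 2.92), and *Ndn* at 493 and 364 CPM, a ratio of 1.355 (1.27 to 1.445). *Snrpn* and *Plagl1* had ratios of 0.988 (0.899 to 1.08) and 0.937 (0.622 to 1.38), whose intervals include equal levels. The *Fabp7* cells were deeper, with a median of 4830.5 against 3731 UMIs, and CPM divides by that depth.

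The 154 GFP+ cone cells with a UMI of *Opn1sw*, the S-opsin gene, held 139.8 CPM (112 to 172) of *Peg3* against 94.5 CPM (89.5 to 99.6) in the rest, a ratio of 1.48 (1.18 to 1.84), and 3174 against 2932 CPM of *Meg3*, a ratio of 1.08 (1.03 to 1.13). *Snrpn* and *Ndn* were lower there, at 0.812 (0.668 to 0.979) and 0.866 (0.753 to 0.991), and *Magel2* did not differ beyond counting error, at 1.08 (0.609 to 1.78). The paper reports higher *Slc7a3* and *Slc7a5* in another cone subpopulation and discusses them in relation to thyroid hormone. Here they were grouped with *Chac1*, *Trib3*, *Asns* and *Ddit3* as stress genes. The 459 cells with UMIs of at least 2 of this set held less *Magel2* than the rest, a ratio of 0.412 (0.252 to 0.640). They held 10.6 CPM (6.54 to 16.2) against 25.7 CPM (23.0 to 28.55). Their *Meg3* and *Nnat* stood at 1.07 (1.04 to 1.10) and 0.924 (0.909 to 0.940) of the rest. The *Meg3* ratios of both splits and this *Nnat* ratio lie near 1. The variance of the 2 genes between thinned GFP+ cone cells was 8.85 and 15.1 times the mean. Whether these ratios exceed that spread was not tested.

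Among progenitor cells, *Plagl1* did not differ with transcripts that act in mitosis, and genes of other cell cycle phases were not used in the split. It was at 282 CPM (269 to 296) in the 606 cells with UMIs of at least 2 of *Ccnb1*, *Cdc20*, *Aurka*, *Plk1* and *Cenpf*, which act in mitosis, and at 282 CPM (268 to 297) in the 620 cells with none. *Meg3* was at 49.7 CPM (44.2 to 55.7) and 97.6 CPM (89.5 to 106), a ratio of 0.509 (0.440 to 0.588). The *Meg3* signal of the progenitor group was thus higher in its cells without mitotic transcripts. *Nnat*, *Snrpn* and *Ndn* had ratios of 0.791, 0.834 and 0.854 in the same direction, and *Peg3* one of 1.09 (0.921 to 1.28).

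The split of the ganglion group by *Atoh7*, which is transcribed in newly born ganglion cells, went through several of the genes. Cells without *Atoh7* held 359.9 CPM (339 to 381) of *Meg3* and cells with it 159 CPM (146 to 174), a ratio of 2.26 (2.04 to 2.52). *Snrpn* had a ratio of 1.70 (1.54 to 1.87), *Peg3* of 2.84 (1.96 to 4.20) and *Plagl1*, at 130.4 against 30.25 CPM, of 4.31 (3.44 to 5.44). *Nnat* was at 1857 and 1847 CPM, a ratio of 1.01 (0.970 to 1.04). Progenitor markers summed to 1191 CPM over the ganglion group, against 4576 CPM in progenitor cells, and their part in the *Plagl1* and *Peg3* values was not tested. Of the neurogenic cells, those with an *Otx2* UMI held less *Plagl1*, at 69.9 against 179 CPM, a ratio of 0.391 (0.329 to 0.462), less *Peg3*, at 0.499 (0.342 to 0.718), and more *Meg3*, at 1.535 (1.37 to 1.72).

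A list of other imprinted genes, written from general knowledge, had 40 members with a row. In the gate comparison 5 of the 31 with at least 50 UMIs were at least 2-fold higher in the GFP+ library (*Blcap*, *Airn*, *Peg10*, *Sgce* and *Trappc9*) and 9 were lower (*Dio3*, *Begain*, *Peg12*, *Atp10a*, *H19*, *Igf2*, *Grb10*, *Mest* and *Slc38a4*), 16.1% and 29.0% of them beside the 21.3% and 14.2% of all genes. Their median log2 ratio was 0.48 and that of all genes 0.30. In GFP+ cone over progenitor cells 8 of 29 were higher and 7 lower, 27.6% and 24.1% beside 27.3% and 13.6% of all genes. In ganglion over progenitor cells the counts were 4 and 7 of 28, 14.3% and 25% beside 10.5% and 11.4%. In amacrine/horizontal over progenitor cells they were 9 and 7 of 27, 33.3% and 25.9% beside 15.5% and 18.9%. The listed genes thus lay on both sides, as did all genes, and no test was made of these shares.

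**Figure D5:**
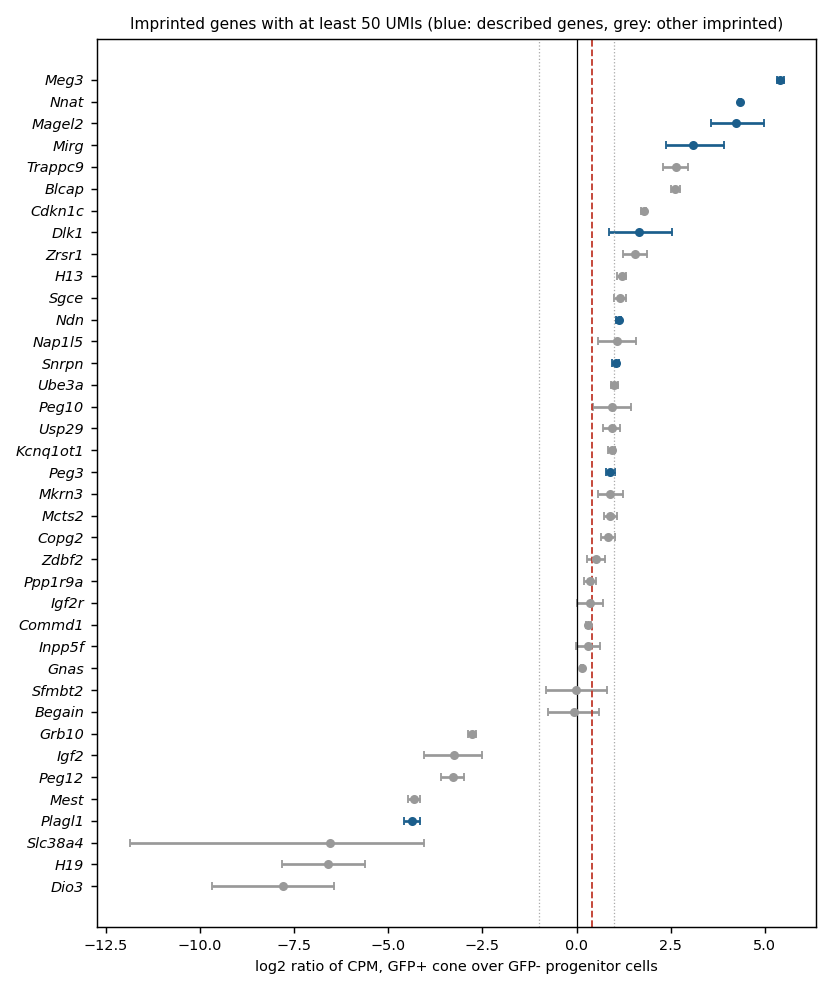
The log2 ratio of CPM (x axis) in GFP+ cone over GFP- progenitor cells for the 9 described genes (blue) and the 29 other imprinted genes with at least 50 UMIs (grey), with 95% counting intervals, dotted lines at 2-fold and a dashed red line at the median of all genes. *Plagl1* stands at the low end with *Mest*, *H19*, *Slc38a4* and *Dio3*, and *Meg3*, *Nnat* and *Magel2* at the high end.

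Some of the lower genes had high levels in progenitor cells. *Mest*, a paternal gene of the hydrolase fold family, was at 459.6 CPM in progenitor and 23.1 CPM in GFP+ cone cells, 19.9-fold lower (17.9 to 22.3). *Grb10*, an adaptor that damps insulin receptor signalling, was at 412 and 59.8 CPM, 6.88-fold lower (6.42 to 7.39), and the noncoding RNA *H19* at 51.4 and 0.532 CPM, from 773 and 8 UMIs. *Peg12* of the Prader-Willi/Angelman region was at 65.2 and 6.71 CPM, the reverse of *Magel2*, its neighbour in that region. *Cdkn1c*, which encodes the cell cycle inhibitor p57, was at 124 CPM in progenitor cells, 426 CPM in GFP+ cone cells and 1527 CPM in amacrine/horizontal cells, and *H19* was also highest in the last group, at 144 CPM. *Mkrn3* held 46.3 CPM in amacrine/horizontal cells and 6.90 to 15.2 CPM elsewhere. The part of the endothelial markers, at 349.6 CPM in the same amacrine/horizontal cells, in these 3 values was not tested.

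Other imprinted genes with at least 50 CPM in some group moved less. *Gnas* stayed between 910.1 and 1121 CPM and *Commd1* between 119 and 236 CPM over the 6 groups. *Ube3a*, the maternal gene of the Angelman syndrome, was at 173.5 CPM in GFP+ cone and 86.4 CPM in progenitor cells, a ratio of 2.01 (1.88 to 2.15). *Kcnq1ot1*, *Mcts2*, *H13* and *Sgce* had ratios of 1.90, 1.85, 2.30 and 2.22 in that comparison, in which the median of all genes was itself above 1.

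The genes whose levels over the 6 groups were most like those of *Meg3*, by the Pearson correlation of log2(CPM + 1) among 4435 genes with at least 50 CPM in some group, were *Usp11*, *Tsr3* and *Fmnl2*, at 0.997, 0.996 and 0.994. For *Ndn* they were *Zcchc17*, *Ankrd37* and *Eif2b5* (0.994, 0.990 and 0.987), for *Nnat* *Smarcc2*, *Tbcc* and *Copa* (0.998, 0.993 and 0.992) and for *Plagl1* they included *Cdh11* and *Gtf3a* (0.997 and 0.993). With 6 groups, 5 of them of 1 library, such values are a description. The correlation does not weigh the size of a change. From progenitor to GFP+ cone cells *Usp11* went from 20.4 to 54.2 CPM, *Tsr3* from 47.2 to 81.7 and *Fmnl2* from 5.39 to 63.7. *Meg3* went from 69.1 to 2942 CPM between the same groups. Among the 9 genes, *Meg3* and *Plagl1* had a correlation of -0.94 over the groups, *Meg3* and *Mirg* of 0.91 and *Magel2* and *Snrpn* of 0.11.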

How the data were processed

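Single cells of E14.5 retinas were sorted by GFP and 1 10x Chromium 3′ v2 library was made per gate. The authors deposited filtered tables of UMI counts per gene and cell, made with Cell Ranger 2.1.1 on mm10 (GRCm38). All sample columns were used. Cells with 250 to 3500 genes and a mitochondrial share under 0.25 were kept, the stated 0.25% being read as that fraction. Scrublet (scanpy 1.11.5, expected rate 0.03) called 3 GFP+ and 55 GFP- cells, of which the filters kept 2 and 0, and these were left in. Counts were summed per group of marker-defined cells with numpy 2.4.6, pandas 2.3.3 and scipy 1.17.1. A gene entered a comparison with 50 UMIs over both groups. Exact intervals, tested on simulated data, cover counting error only. Shares compared between depths use cells thinned to 3200 UMIs, leaving out 579 GFP+ and 28 GFP- cells. Alternatives were other filters, 3 markers, TMM factors (edgeR 4.0.16), median-of-ratios factors, per-cell means, thinning, a 1.5-fold limit and no minimum. The members and the gene lists were chosen with earlier results of these data known. Other imprinted genes were named if at a member's locus with 50 UMIs or at 50 CPM in a group, and like genes as the 3 highest correlations for *Meg3*, *Ndn*, *Nnat* and *Plagl1*, of which 1 is not reported here. Splits by neurogenic markers, by *Otx2* and by ganglion cells over 3500 genes were added after the values were seen.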

Additional observations from a re-analysis of the deposited data

How the results depend on the processing

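Counts of genes at least 2-fold apart, higher and lower added together, stayed within 1.5 times the reported count under each alternative run, at 5 to 7 between the gates, 6 to 9 for cone, 4 to 7 for ganglion and 5 to 9 for amacrine/horizontal over progenitor cells. Taken by direction, 5 in place of 3 genes were higher in ganglion cells without the limit of 3500 genes, and in thinned cells 3 in place of 5 were higher in amacrine/horizontal cells and 1 in place of 2 lower in ganglion cells. Of the log2 ratios under an alternative, 143 stayed within their counting interval and 96 left it. Among the ratios of the 4 counted comparisons, the direction turned for *Snrpn* between the gates, at -0.04 without the limit of 3500 genes or without any filter on cells, and 0 ratios of at least 2-fold changed sign. *Peg3* between the gates fell to 0.99 with median-of-ratios factors from 1.33. *Ndn* and *Snrpn* in cone over progenitor cells stood at 0.76 and 0.67 with TMM factors. In thinned cells *Dlk1* fell under 50 UMIs and stood at 1.01 in cone over progenitor cells, and *Peg3* in ganglion over progenitor cells at -0.92. TMM factors moved the median of all genes by -0.33 between the gates, -0.37 for cone and -0.23 for amacrine/horizontal over progenitor cells. Except for the direct effect of the scaling, the cause was not tested. No paired analysis was possible because each gate is 1 library. Low counts of *Dlk1*, *Mirg* and *Magel2* outside the cone groups limit their ratios, and *Snrpn* counts may be shared with *Gm38393*.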

Other observations

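Between *Meg3* and *Mirg*, the noncoding gene *B830012L14Rik* had 59 UMIs in GFP+ cone cells and 3 in progenitor cells. *Gm26906*, annotated on the strand opposite to *Meg3* and overlapping 1228 of its exonic bases, had 55 UMIs in GFP+ cone cells and 1 in progenitor cells. Both were looked up after the values of *Meg3* were seen. Within thinned GFP+ cone cells *Magel2* was found in 5.21% (4.10 to 6.50) of the cells with 9 or more *Meg3* UMIs and in 6.42% (5.29 to 7.71) of the others.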
